A study of Mus musculus with 16 samples.

Results

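The genes described here are those of the fibroblast growth factor (FGF) ligands and receptors, 10 of the 52636 gene identifiers in the count table. They are picked out by gene symbol, with no threshold on any measured value, although the set was drawn up with earlier results of these data known: the ligands Fgf4, Fgf8, Fgf15 and Fgf17, the receptor tyrosine kinases Fgfr1, Fgfr2, Fgfr3 and Fgfr4, the receptor Fgfrl1, which has no kinase, and the co-receptor Klb. RNA came from 16 cultures of CRAFR26, a mouse embryonic stem cell line that carries an inducible c-RAF kinase construct, in 4 groups of 4 (2 cultures each of clone 4 and clone 8). All of them, the 0h group included, had spent 48 h with the FGF receptor inhibitor PD173074 (PD17, 250 nM), which stood in for the MEK inhibitor of their 2i/LIF medium. The 0h group was taken before induction, the 2h and 4h groups after 2 h and 4 h of 250 nM 4-hydroxytamoxifen (4OHT), and the rev group after 4 h of induction and a further 2 h with a MEK inhibitor. No culture received the vehicle alone and none was induced for 6 h without the MEK inhibitor, so time in culture and treatment cannot be told apart in these comparisons. Both clones are single lines, and p-values measure the spread between their cultures.

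FGF ligands are secreted proteins that bind, together with heparan sulfate, to receptor tyrosine kinases at the cell surface, and the bound receptors signal through RAS, RAF, MEK and ERK. Mouse embryonic stem cells make their own FGF4, and this autocrine signal is known for readying them to leave the naive state, which is why a MEK inhibitor is part of the medium that holds them there. The receptor inhibitor acts above RAF and the inducible construct acts at RAF, so ERK could be switched on in these cells while the receptors were blocked.

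Total counts per library ran from 2172651 to 12680303 (median 6502783), and the 8 most abundant gene models took from 42.0% to 80.4% of a library. Values are CPM, counts scaled to a common library size with TMM, a factor that corrects for the composition of each library, and 3 counts, taken as the limit of detection, came to 0.213 to 1.35 CPM. Intervals and limits of this kind cover counting error only. The 8 pluripotent stem cell markers (among them Pou5f1, Sox2 and Nanog) were all measured, with a summed level of 1594 to 2310 CPM. Single markers moved: at 4h against 0h 5 were called higher and 3 lower, beside 17.2% and 16.8% of all genes. In rev against 4h 3 were higher and 4 lower, beside 7.93% and 8.43%. Markers of fibroblasts summed to 2.44 to 8.56 CPM with Postn at 0 in every library, and those of primitive endoderm to 3.26 to 7.21, of the formative epiblast to 32.3 to 57.0 and of neuroectoderm to 26.1 to 48.2 CPM. The fibroblast sum was lowest on average in the 0h group (3.05 CPM), intermediate in the 2h group (4.01) and the 4h group (4.04) and highest in rev (5.36), with overlapping ranges, and of the 2 markers tested 1 was higher at 2h and 1 in rev, each against 0h. Early mesoderm markers moved with the groups, from a mean sum of 6.96 CPM at 0h to 17.2 at 2h, 30.0 at 4h and 10.3 in rev. Of the 4 tested, 3 were higher at 2h and 3 at 4h against 0h, beside 11.4% and 17.2% of all genes. In rev against 4h 3 were lower, beside 8.43%. The sum for the formative epiblast was also higher at 4h (48.4 to 57.0 CPM) than at 0h (32.3 to 44.5 CPM) without overlap. There 2 of 4 tested markers were called higher, beside 17.2% of all genes. At 2h against 0h 1 was higher and 1 lower, and in rev against 0h 2 were higher and 1 lower. Of the 3 neuroectoderm markers tested, 2 were higher in rev against 0h and 2 in rev against 4h, beside 12.4% and 7.93% of all genes. The part of these markers in the results was not tested. In bulk RNA, fewer cells that express a gene and less of its RNA per cell cannot be told apart.

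The proximal promoters of Fgf4 and Fgfrl1, as RefSeq places them, are shown. Among the members with at least 25 counts in every library, Fgf4 had the largest changes and Fgfrl1 had none that passed the test. Fgfrl1 was not thereby shown to be unchanged. Its log2 fold change at 2h against 0h was -0.38 (edgeR, adjusted p 0.0543), where that of Fgfr1, which was called, was -0.21. The windows are the 250 bases before the RefSeq start site on GRCm38.p6, and both are on the plus strand. In the annotation used for positions and exon lengths both genes start further upstream, Fgf4 at 144847367 and Fgfrl1 at 108692382. Sequence before those starts was not searched. They were searched on both strands for the GC box (GGGCGG), the CCAAT box (CCAAT), an ETS core (CCGGAA), the AP-1 site (TGANTCA), the CRE (TGACGTCA), an E-box (CACGTG) and the octamer (ATGCAAAT). Capitals mark the matches, on either strand.
Fgf4, chr7:144861136-144861385: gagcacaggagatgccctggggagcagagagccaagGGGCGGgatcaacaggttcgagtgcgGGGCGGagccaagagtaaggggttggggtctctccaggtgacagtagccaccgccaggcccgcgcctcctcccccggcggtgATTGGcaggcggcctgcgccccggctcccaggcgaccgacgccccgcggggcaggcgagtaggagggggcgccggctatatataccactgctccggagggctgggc
Fgfrl1, chr5:108693979-108694228: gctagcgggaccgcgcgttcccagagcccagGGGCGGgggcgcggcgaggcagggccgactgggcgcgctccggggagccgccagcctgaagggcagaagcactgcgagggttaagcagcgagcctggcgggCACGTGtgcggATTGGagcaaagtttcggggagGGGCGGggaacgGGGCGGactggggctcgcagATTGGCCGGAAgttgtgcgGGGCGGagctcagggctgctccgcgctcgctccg

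The Fgf4 window held 2 GC boxes, which began 214 and 188 bases before the start site, and 1 CCAAT box, 106 bases before it. Its GC content was 71.2%, against a median of 52.4% over the 32851 mouse windows of the same length. The Fgfrl1 window held 4 GC boxes, 2 CCAAT boxes, 1 ETS core and 1 E-box at a GC content of 73.6%, and its second CCAAT box adjoins the ETS core in the run of capitals. Of all windows, 32.7% held a GC box, 33.8% a CCAAT box, 12.0% an ETS core, 6.75% an AP-1 site, 6.02% an E-box, 1.60% the octamer and 1.55% the CRE. Letters alone show neither binding nor use of a site. RefSeq windows were matched for 6 of the 10 genes, and Fgfr1, Fgf8, Fgf15 and Fgf17 had no entry.

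Levels of different genes were compared per kilobase of exon, as CPM per kb, over all 16 libraries. Fgf4 stood highest with a mean of 34.8 CPM per kb (range 14.9 to 58.4), above 96.4% of the 12215 genes tested. Fgfr1 followed at 7.86 (5.96 to 10.1) and Fgfrl1 at 3.77 (2.67 to 5.67), and the ranges of these 3 genes did not overlap. The other 7 had means from 0.437 CPM per kb for Fgf17 down to 0.0785 for Fgf15, with ranges that overlapped one another. Among the ligands, Fgf4 made up 97.1% ± 1.85 of the summed CPM per kb of the 4 (mean ± SD, n = 16). Among the kinase receptors, Fgfr1 made up 94.3% ± 2.52, and its share lay between 88.7% and 98.0% in every library.

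**Figure D1:**
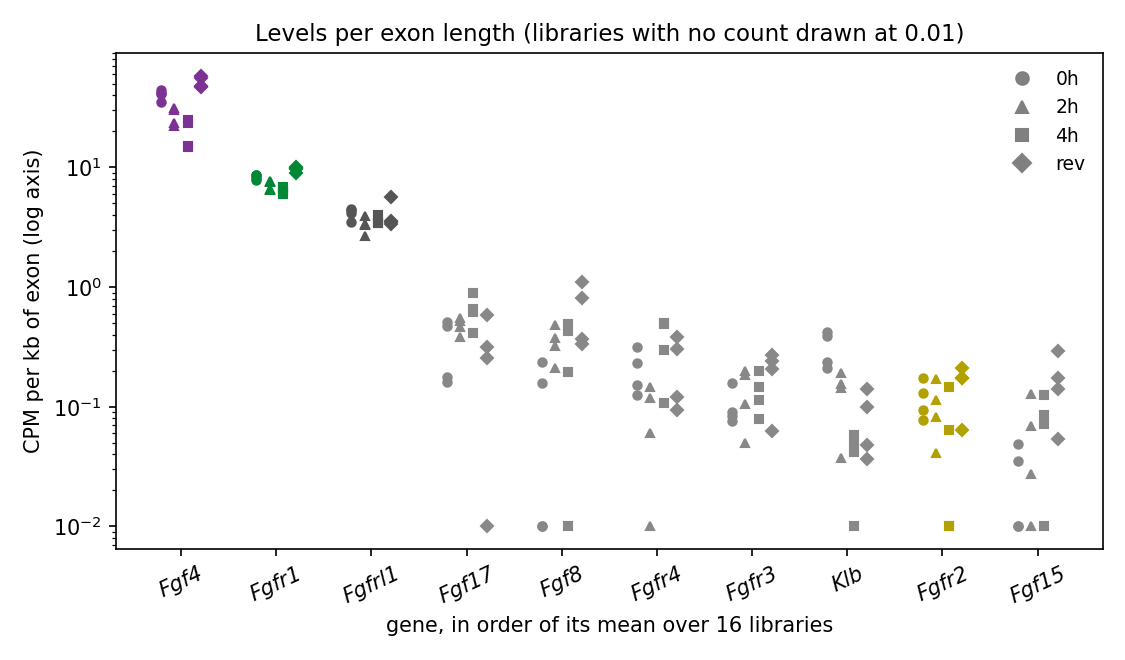
Level of each of the 10 genes in each of the 16 libraries, in CPM per kb of exon on a log axis, with libraries that held no count drawn at 0.01. Fgf4 lies between 14.9 and 58.4, Fgfr1 between 5.96 and 10.1 and Fgfrl1 between 2.67 and 5.67, above the overlapping clouds of the other 7 genes.

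Changes were tested with edgeR's quasi-likelihood test on all genes that passed its filter on low counts, with Benjamini-Hochberg adjustment over those 12215 genes, and a gene was called at an adjusted p under 0.05. The filter passed Fgf4, Fgfr1, Fgfr2 and Fgfrl1. The 6 other members had at most 18 counts in any library, and their values come from the same model fitted without the filter to 31361 genes. Each SE printed is the one that the log2 fold change and its p-value imply. For Klb, Fgf8, Fgf15 and Fgfr4 the intervals from these SEs were narrower than those from counting error alone. The SEs and intervals printed for these genes therefore understate the error.

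Fgf4 (ENSMUSG00000050917, chr7:144847367-144865243 on the plus strand, GRCm38), the ligand that embryonic stem cells secrete, fell after induction and rose above its starting level in rev. At 0h its level was 133 and 113 CPM in the 2 cultures of clone 4 and 132 and 142 CPM in those of clone 8, a mean of 130 ± 12.5 (SD, n = 4). At 2h it was 75.5 and 70.1 CPM in clone 4 and 96.7 and 101 CPM in clone 8, a mean of 85.7 ± 15.2. Every 2h culture lay below every 0h culture. The log2 fold change from 0h to 2h was -0.60 (SE 0.08, 95% interval -0.77 to -0.43, adjusted p 1.73e-06).

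At 4h Fgf4 stood at 47.6 and 48.0 CPM in clone 4 and 75.6 and 79.2 CPM in clone 8, a mean of 62.6 ± 17.1. The drop from 0h was 2.13-fold, a log2 fold change of -1.09 (SE 0.09, 95% interval -1.26 to -0.92, adjusted p 3.48e-12), and the groups did not overlap. From 2h to 4h the log2 fold change was -0.49 (SE 0.09, adjusted p 0.000222). Here the 4h cultures of clone 8 lay above the 2h cultures of clone 4, while within each clone both 4h cultures lay below both 2h cultures. This last call was lost without the clone term (-0.49, adjusted p 0.139) and with library size alone (-0.38, adjusted p 0.995), a scaling under which the 2h call against 0h was lost too (-0.60, adjusted p 0.174).

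In rev, Fgf4 reached 151 and 149 CPM in clone 4 and 178 and 187 CPM in clone 8, a mean of 166 ± 19.1. These 4 values lay above those of every other library of the series. Against 4h the rise was 2.73-fold, a log2 fold change of 1.45 (SE 0.09, 95% interval 1.27 to 1.62, adjusted p 7.09e-15). Against 0h it was 1.28-fold, a log2 fold change of 0.36 (SE 0.08, 95% interval 0.19 to 0.52, adjusted p 0.00164), with all 4 rev cultures above all 4 of 0h. The 8 most abundant models took 42.0% to 62.4% of the counts in the 4h libraries and 55.1% to 80.4% in the rev libraries. With that share as a covariate the log2 values for Fgf4 were 1.38 against 4h (adjusted p 7.67e-13) and 0.33 against 0h (adjusted p 0.00356). Scaled by library size alone, the median gene shifted by -0.32 in rev against 0h and Fgf4 by 0.04 (adjusted p 0.923), so the excess over 0h is relative to the other genes. Without the clone term it was 0.35 (adjusted p 0.148).

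**Figure D2:**
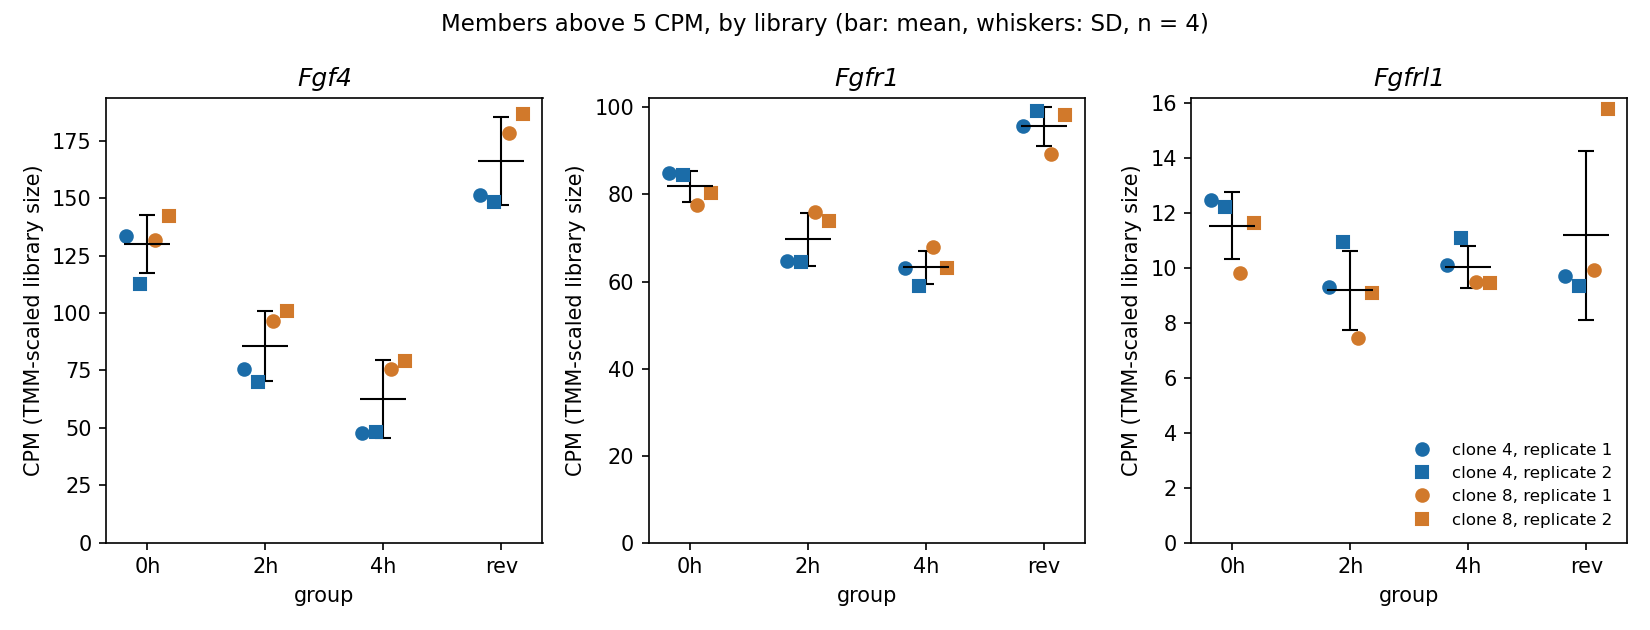
CPM of Fgf4, Fgfr1 and Fgfrl1 in each library by group, with colours for the 2 clones, symbols for the replicates, bars for the mean of 4 libraries and whiskers for the SD. The means of Fgf4 run 130, 85.7, 62.6 and 166 CPM from 0h to rev and those of Fgfr1 81.8, 69.7, 63.3 and 95.6 CPM, while 1 rev culture of Fgfrl1 stands at 15.8 CPM above the others.

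The 3 other ligands had few counts, with more than 3 in 11 of 16 libraries for Fgf17, 7 for Fgf8 and 1 for Fgf15. Fgf8 (ENSMUSG00000025219, chr19:45736798-45742915, minus strand), which patterns the gastrulating embryo, had 0, 0, 2 and 2 counts at 0h (clone 4, then clone 8), 5, 1, 6 and 4 at 2h, 6, 5, 0 and 1 at 4h, and 14, 5, 3 and 1 in rev. Its rev libraries, at 0.451 to 1.49 CPM, lay above its 0h libraries, at 0 to 0.322 CPM. This separation rests on values under the limit of 3 counts. The lowest rev value is 1 count (clone 8 replicate 2) and the highest 0h value is 2 counts (clone 8 replicate 1). In the unfiltered edgeR fit, in which 7.23% of genes were called for rev against 0h, the log2 fold change was 2.39 (SE 0.66, adjusted p 0.00665), and the ratio of the pooled levels was 6.71 with a counting interval of 2.29 to 26.7. Without 0h clone 4 replicate 2 it was 1.75 and without rev clone 4 replicate 1 it was 2.04, both with an adjusted p of 0.150, without 0h clone 8 replicate 1 it was 3.01, and library size alone gave an adjusted p of 0.0629.

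Fgf17 (ENSMUSG00000022101, chr14:70636203-70642268, minus strand), of the same subfamily as Fgf8, had 86 counts in all. They were 1, 2, 5 and 8 at 0h, 5, 2, 11 and 11 at 2h, 10, 6, 8 and 4 at 4h, and 5, 2, 6 and 0 in rev. The means were 0.557 ± 0.315, 0.808 ± 0.124, 1.09 ± 0.335 and 0.490 ± 0.408 CPM, the groups overlapped, and no comparison of groups passed the test (smallest adjusted p 0.215, for 4h against 0h). Fgf15 (ENSMUSG00000031073, chr7:144896531-144900953, plus strand), the mouse counterpart of human FGF19 and a ligand that works with Klb, had 24 counts in all and at most 5 in a library. Its rev libraries (0.166 to 0.901 CPM) lay above those of 0h (0 to 0.149 CPM), but those values are from 0 to 5 counts, and the unfiltered log2 fold change of 2.27 (SE 1.00) had an adjusted p of 0.188. Exons of Fgf15 overlap the antisense model Gm26793 over 761 bases, and reads there cannot be assigned without the strand setting of the counts.

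Fgfr1 (ENSMUSG00000031565, chr8:25513654-25575718, plus strand), the main FGF receptor of these cells by level, followed the same order of groups as Fgf4 with smaller changes. At 0h it was at 85.0 and 84.4 CPM in clone 4 and 77.7 and 80.3 CPM in clone 8, a mean of 81.8 ± 3.49. At 4h the cultures stood at 63.0 and 58.9 CPM in clone 4 and 68.0 and 63.1 CPM in clone 8, a mean of 63.3 ± 3.72, all below the 0h cultures. The log2 fold change was -0.37 (SE 0.08, 95% interval -0.52 to -0.22, adjusted p 0.000239). With library size alone it was -0.26 (adjusted p 0.586).

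At 2h Fgfr1 was at 64.6 and 64.4 CPM in clone 4 and 75.9 and 74.0 CPM in clone 8, a mean of 69.7 ± 6.07. The groups did not overlap and the log2 fold change from 0h was -0.21 (SE 0.07, adjusted p 0.0355). This call sat at the threshold, and 10 of 27 other settings lost it. Among these were the fits without 0h clone 4 replicate 1 (-0.19, adjusted p 0.0709), 0h clone 4 replicate 2 (-0.19, 0.111), 0h clone 8 replicate 2 (-0.23, 0.0535), 2h clone 4 replicate 1 (-0.18, 0.140) and 2h clone 4 replicate 2 (-0.19, 0.0822), and the fit without the filter on low counts (-0.18, 0.252). From 2h to 4h the value of -0.16 (95% interval -0.31 to -0.0022) did not pass the test (adjusted p 0.231), and the groups overlapped.

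In rev Fgfr1 was at 95.7 and 99.3 CPM in clone 4 and 89.3 and 98.3 CPM in clone 8, a mean of 95.6 ± 4.47 and above every library of the 3 other groups. It rose 1.51-fold against 4h, a log2 fold change of 0.60 (SE 0.08, 95% interval 0.44 to 0.75, adjusted p 4.74e-07), which was 0.58 with the share of the 8 most abundant models as a covariate (adjusted p 2.50e-05) and 0.16 with library size alone (adjusted p 0.606). Against 0h the log2 fold change was 0.23 (SE 0.07, adjusted p 0.0266). That call was lost in the fits without 0h clone 8 replicate 1 (0.19, adjusted p 0.0838), 0h clone 8 replicate 2 (0.21, 0.0742), rev clone 4 replicate 1 (0.21, 0.0745), rev clone 4 replicate 2 (0.20, 0.0868) or rev clone 8 replicate 2 (0.21, 0.0583), without the clone term (0.22, 0.0638) and without the filter on low counts (0.21, 0.149). With library size alone the value against 0h turned to -0.10 (adjusted p 0.801). Exons of Fgfr1 overlap the antisense model Gm16159 over 164 of 9875 bases.

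Of the 4 members tested, 2 were thus called at 2h against 0h, both lower, where 21.1% of all genes were called, 11.4% higher and 9.68% lower. At 4h against 0h the same count was 2, both lower, beside 33.9% of all genes (17.2% higher and 16.8% lower). From 2h to 4h 1 was called, lower, beside 7.32% of all genes (3.8% higher and 3.52% lower). In rev against 4h 2 were called, both higher, beside 16.4% of all genes (7.93% higher and 8.43% lower). In rev against 0h 2 were called, both higher, beside 22.3% (12.4% higher and 9.86% lower). With 4 genes tested, nothing particular to the family can be read from these shares. The groups of a tested gene did not overlap in 15.4% of genes between 2h and 0h, 23.2% between 4h and 0h, 8.35% between 4h and 2h, 13.3% between rev and 4h and 16.8% between rev and 0h. The comparisons share libraries and are not independent of each other.

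**Figure D3:**
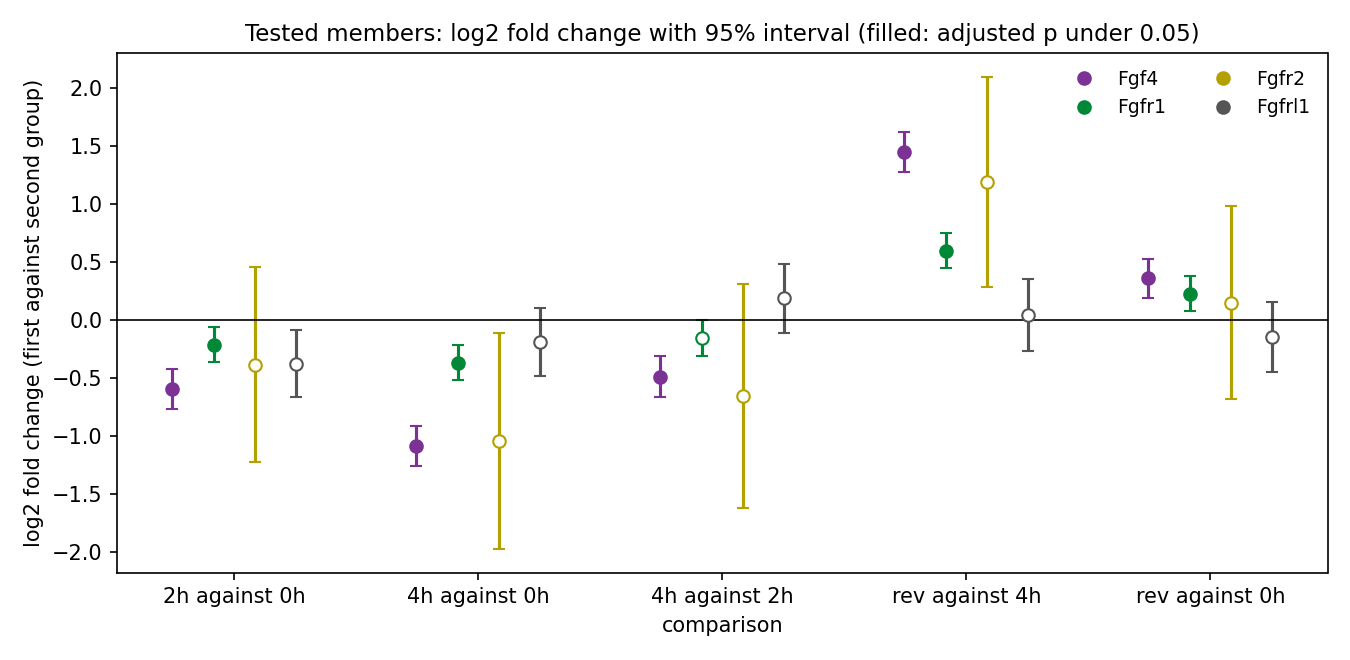
Log2 fold changes of the 4 tested genes in 5 comparisons, with 95% intervals and filled symbols where the adjusted p was under 0.05. Fgf4 is filled in every comparison, from -1.09 at 4h against 0h to 1.45 in rev against 4h, and Fgfr1 in all except 4h against 2h, while Fgfr2 has the widest intervals and no filled symbol.

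Fgfr2 (ENSMUSG00000030849, chr7:130162451-133123350, minus strand) passed the filter with 114 counts over the 16 libraries, and its only called difference was between the clones. It passed through libraries of clone 4, the clone where it is higher, so the filter and that difference are not independent. In clone 4 its counts were 5 and 12 at 0h, 9 and 4 at 2h, 6 and 13 at 4h, and 17 and 10 in rev. In clone 8 they were 5 and 9 at 0h, 10 and 6 at 2h, 0 and 0 at 4h, and 4 and 4 in rev. Clone 4 averaged 1.53 ± 0.467 CPM and clone 8 0.688 ± 0.582 CPM (n = 8 each), with overlapping ranges of 0.660 to 2.17 and 0 to 1.80 CPM.

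The log2 difference of Fgfr2 between the clones, clone 8 minus clone 4, was -1.20 (SE 0.32, adjusted p 0.00415), and it was called in each of the 24 other settings (adjusted p up to 0.0177). The 2 clone 8 libraries at 0 allow up to 0.570 and 0.789 CPM, against 0.426 to 1.80 CPM in the 6 other libraries of that clone. Between groups, 4h against 0h gave -1.04 (SE 0.46, adjusted p 0.0772) and rev against 4h gave 1.19 (SE 0.45, adjusted p 0.0628), neither called. Both calls were made without 4h clone 4 replicate 2, at -1.93 (adjusted p 0.0101) and 2.09 (adjusted p 0.0103). The annotated span of Fgfr2 includes a model that reaches the neighbouring gene Ctbp2, with 314 bases of exon shared on the same strand.

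Fgfr3 (ENSMUSG00000054252, chr5:33721674-33737068, plus strand), a receptor best known from cartilage and bone, had 2, 4, 7 and 6 counts at 0h, 11, 3, 9 and 5 at 2h, 13, 7, 3 and 4 at 4h, and 18, 8, 9 and 1 in rev. The means were 0.727 ± 0.269, 0.963 ± 0.499, 0.967 ± 0.366 and 1.40 ± 0.656 CPM, the groups overlapped and no comparison of groups passed the test (smallest adjusted p 0.142, for rev against 0h). Exons of Fgfr3 overlap the antisense model G630022F23Rik over 998 of 7158 bases. Fgfr4 (ENSMUSG00000005320, chr13:55152640-55168759, plus strand), which in liver pairs with Klb to receive Fgf15, had 3, 3, 7 and 5 counts at 0h, 4, 0, 5 and 3 at 2h, 16, 15, 2 and 4 at 4h, and 4, 5, 2 and 3 in rev.

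The 2 cultures of clone 4 at 4h stood highest for Fgfr4, at 1.76 and 1.75 CPM, and those of clone 8 were at 0.380 and 1.05 CPM. In the unfiltered fit, where 2.45% of genes were called for 4h against 2h, the log2 fold change was 1.77 (SE 0.46, adjusted p 0.00863), although the groups overlapped. The call was lost without 4h clone 4 replicate 1 (1.64, adjusted p 0.0739), 4h clone 4 replicate 2 (1.66, adjusted p 0.0604) or 2h clone 8 replicate 2 (1.61, adjusted p 0.0556). No other comparison of groups called Fgfr4.

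Fgfrl1 (ENSMUSG00000008090, chr5:108692382-108706924, plus strand) binds FGF ligands but lacks the kinase domain, and it is often described as a decoy. At 0h it was at 12.5 and 12.2 CPM in clone 4 and 9.81 and 11.7 CPM in clone 8. After 2 h of induction it was at 9.32 and 10.9 CPM in clone 4 and 7.43 and 9.09 CPM in clone 8, and after 4 h at 10.1 and 11.1, and 9.49 and 9.47 CPM. The rev cultures were at 9.70 and 9.34, and 9.94 and 15.8 CPM, and all 4 groups overlapped.

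No comparison called Fgfrl1, although its depth (25 to 128 counts per library) held the 95% interval for 4h against 0h to -0.48 to 0.10. The value nearest to a call was 2h against 0h at -0.38 (SE 0.14, adjusted p 0.0543). It passed without 0h clone 8 replicate 1 (-0.44, adjusted p 0.0394), 2h clone 4 replicate 2 (-0.41, 0.0446) or rev clone 8 replicate 2 (-0.38, 0.0304). The value for rev against 4h, 0.04, rested on rev clone 8 replicate 2 and was -0.08 without it (adjusted p 0.756).

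Klb (ENSMUSG00000029195, chr5:65348314-65384007, plus strand) encodes beta-klotho, the membrane co-receptor that Fgf15 and Fgf21 need, and it was the member whose counts were nearly gone at 4h. It had 7, 12, 6 and 10 counts at 0h, 5, 2, 2 and 10 at 2h, 2, 0, 1 and 1 at 4h, and 6, 1, 1 and 1 in rev. In CPM the 0h cultures ran from 0.965 to 1.90, those of 2h from 0.169 to 0.876, those of 4h from 0 to 0.263 and those of rev from 0.166 to 0.640. In these values the 0h group overlapped none of the 3 others, and every 4h library was below the limit of 3 counts. That limit was 1.31 CPM in 2h clone 4 replicate 2 (2 counts) and 1.35 CPM in rev clone 8 replicate 2 (1 count). Both limits lie above the lowest 0h value, so separation of 0h from 2h and from rev is not secure.

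Pooled over its 4 libraries, Klb was 9.01 times higher at 0h (35 counts) than at 4h (4 counts), with a counting interval of 3.22 to 34.9. In the unfiltered edgeR fit the log2 fold change for 4h against 0h was -3.17 (SE 0.58, adjusted p 1.72e-06), where 12.4% of genes were called. That SE is smaller than counting error alone would give. The call was made in each of the 22 other settings (adjusted p up to 0.00182). The size of the drop rested in part on 4h clone 4 replicate 2, which had 0 counts and without which the value was -2.56. For 2h against 0h it was -1.21 (SE 0.41, adjusted p 0.0489), beside 7.35% of genes, and 16 of 22 settings lost it. Of these, 11 left out 1 library each: any of the 4 at 0h, any at 2h except clone 8 replicate 2, replicate 2 of either clone at 4h, or either replicate of clone 4 in rev. Their adjusted p ran from 0.0518 (without 4h clone 8 replicate 2) to 0.307 (without 2h clone 8 replicate 1, where the value was -0.90).

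Klb stayed low in rev, with a log2 fold change against 0h of -1.85 (SE 0.50, adjusted p 0.00528), which without the clone term was -1.75 (adjusted p 0.0591) and without rev clone 4 replicate 1 was -2.44. Against 4h its value in rev was 1.33 (SE 0.77, 95% interval -0.18 to 2.84, adjusted p 0.479), where 5.85% of genes were called. This value was 0.69 without rev clone 4 replicate 1 and close to that without 4h clone 4 replicate 2. Those groups hold 4 and 9 counts, and the ratio of their pooled levels was 2.70 with a counting interval of 0.754 to 12.0. This counting interval is wider than the interval of the fit, which is therefore too narrow. Neither a partial rise from 4h to rev nor its absence was shown.

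**Figure D4:**
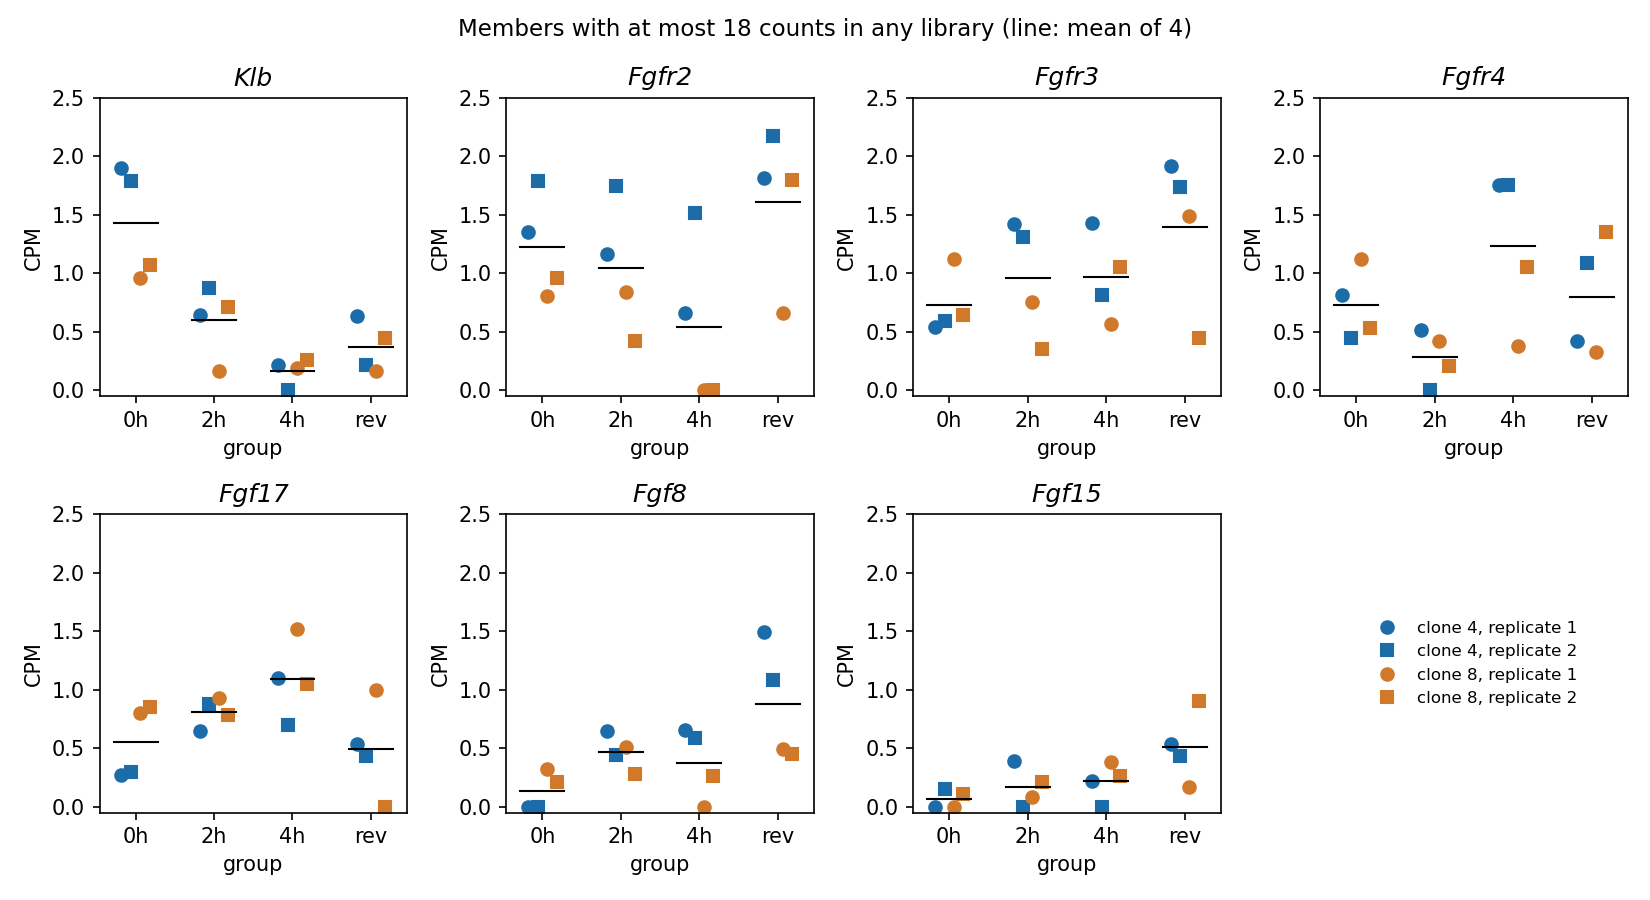
CPM of the 7 genes with at most 18 counts in any library, by group, with colours for the clones, symbols for the replicates and a line at the mean of 4 libraries. Klb runs from 0.965 to 1.90 CPM at 0h and from 0 to 0.263 CPM at 4h without overlap, Fgfr2 is at 0 in both clone 8 cultures at 4h, and most other groups overlap.

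The clones themselves differed in 2 of the 4 tested members, beside 29.1% of all genes (15.4% higher in clone 8 and 13.7% lower). Fgf4 was higher in clone 8 by 0.38 on the log2 scale (SE 0.06, adjusted p 6.91e-06), a 1.30-fold difference that was 0.13 with library size alone (adjusted p 0.572). Fgfr2 was lower in clone 8, as given above. Fgfr1 differed by 0.04 (95% interval -0.07 to 0.15, adjusted p 0.644) and Fgfrl1 by -0.08 (95% interval -0.30 to 0.13, adjusted p 0.598).

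Whether the clones responded differently was tested directly. For Fgf4 the log2 ratio of 4h to 0h was -1.36 in clone 4 and -0.82 in clone 8, and that of rev to 4h was 1.65 and 1.24. The difference between clones was 0.52 for 4h against 0h (SE 0.14, adjusted p 0.0940) and -0.41 for rev against 4h (SE 0.14, adjusted p 0.808), and neither passed the edgeR test. Without 0h clone 4 replicate 2 the first was 0.65 and passed (adjusted p 0.0302). None of the 4 tested members was called in any of these 5 tests of a difference between clones. The share of all genes called was 0.0901% for the step from 0h to 2h, 0.311% from 0h to 4h, 0.0327% from 2h to 4h, 0.00819% from 4h to rev and 0.0573% from 0h to rev. The log2 ratio of rev to 0h for Fgf4 was 0.29 in clone 4 and 0.41 in clone 8, above 0 in both.

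Fgf4 and Fgfr1 varied together over the libraries. After each clone was centred on its own mean, their log2 CPM correlated with Pearson's r = 0.95 over the 16 libraries, which share groups and treatments, and with r = 0.08 once the mean of each of the 8 combinations of group and clone was removed. The likeness thus lay between the groups. Fgf4 moved more than Fgfr1, and the ratio of their CPM per kb went from 4.92 ± 0.594 at 0h to 3.78 ± 0.369 at 2h and 3.04 ± 0.735 at 4h, with 5.39 ± 0.746 in rev (n = 4 each, not tested).

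**Figure D5:**
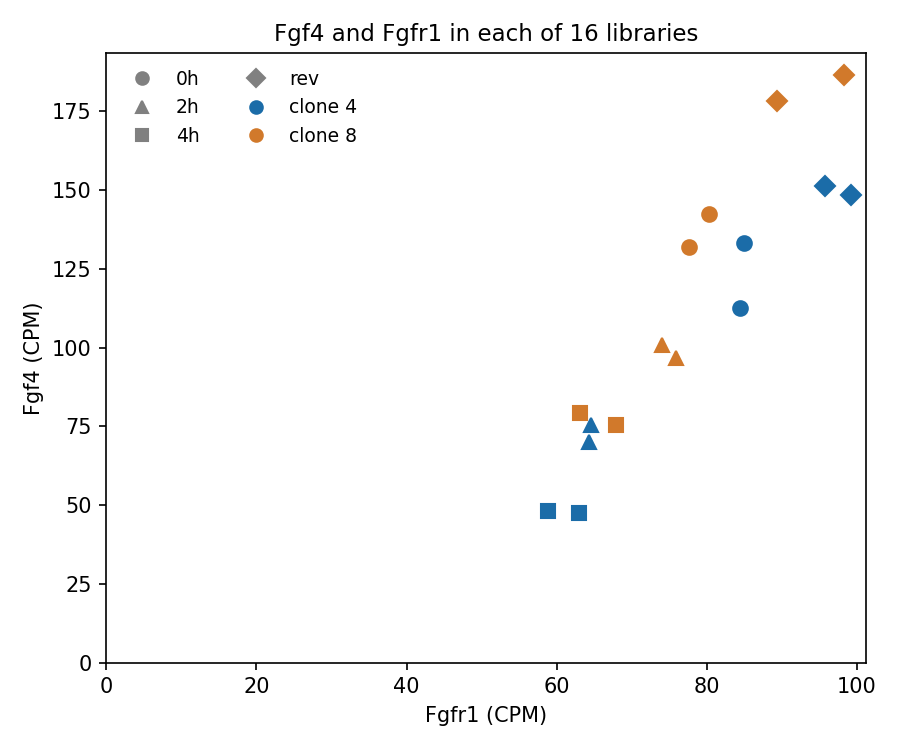
Fgf4 against Fgfr1 in CPM for each of the 16 libraries, with symbols for the groups and colours for the clones. The rev libraries lie at the upper right (Fgf4 149 to 187, Fgfr1 89.3 to 99.3 CPM), the 4h libraries at the lower left beside those of 2h, and the 0h libraries between.

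The 3 genes most like Fgf4 by this centred r, among 8643 tested genes with a mean of at least 5 CPM, were S1pr1 (0.98), Rgma (0.96) and Spic (0.96). Those most like Fgfr1 were Gadd45b (0.96), Rgma (0.96) and S1pr1 (0.95). The log2 fold change of S1pr1, a receptor for sphingosine 1-phosphate, was -1.78 for 4h against 0h and 2.13 for rev against 4h, and that of Rgma, a membrane-anchored guidance protein, was -1.49 and 2.14. For Fgfr2 the most like genes were Ppfia3 (0.89), Urgcp (0.89) and Gnl1 (0.87), where Fgfr2 itself had 0 to 17 counts per library. These values describe 16 libraries in 4 groups, and the genes were picked for the likeness.

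Of the 14 other secreted FGF ligands in the annotation, only Fgf3 and Fgf10 passed the filter. Fgf3 lies next to Fgf4 on chromosome 7 (chr7:144838083-144844436, plus strand). It fell from 3.46 ± 0.599 CPM at 0h to 1.46 ± 0.549 at 2h (log2 fold change -1.29, SE 0.28, adjusted p 0.000997), beside 9.68% of all genes. It was at 2.40 ± 0.730 at 4h (-0.56 against 0h, adjusted p 0.101) and at 3.60 ± 2.10 in rev. The SD in rev was the largest, so that mean alone does not show a return to the 0h level. Fgf10 was lower at 4h than at 2h (-1.19, SE 0.35, adjusted p 0.0350), beside 3.52% of all genes. It was higher in clone 8 than in clone 4 (log2 3.06, adjusted p 9.96e-10), beside 15.4% of all genes. Its level in each clone was not set against the limit of 3 counts, so the size of that difference is uncertain. Of the 4 intracellular FGF homologous factors, which are not secreted and do not act through these receptors in the usual way, Fgf11 and Fgf13 passed. Fgf13 rose at 4h against 0h from 1.44 ± 0.739 to 2.89 ± 0.433 CPM (1.03, SE 0.31, adjusted p 0.00952), beside 17.2% of all genes. Its mean at 0h was close to the highest limit of 3 counts, 1.35 CPM.

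Of 16 genes for co-receptors and heparan sulfate, 13 were tested. At 2h against 0h 2 were higher (15.4%, beside 11.4% of all genes) and none lower. At 4h against 0h 4 were higher (30.8%, beside 17.2%) and 1 lower (7.69%, beside 16.8%), and the list's medians were 0.06 and 0.09 beside -0.02 for all genes in both. Gpc4, a glypican that carries heparan sulfate at the membrane, rose by 0.67 at 2h and 1.15 at 4h (adjusted p 4.64e-05 and 8.27e-10). Ext1, which builds the heparan sulfate chain, rose by 0.54 and 0.89 (adjusted p 0.000587 and 1.21e-07), and the syndecan Sdc4 by 0.44 at 4h (adjusted p 0.000402). The sulfotransferase Hs6st1 fell by 0.24 at 4h (adjusted p 0.0248).

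In rev against 4h 2 of these 13 were higher (15.4%, beside 7.93% of all genes), Hs6st1 by 0.65 (adjusted p 5.12e-07) and Ndst1 by 0.43 (adjusted p 0.00356), and 3 were lower (23.1%, beside 8.43%), Sdc4 (-0.51, adjusted p 0.000221), Sdc1 (-0.46, 0.0159) and Gpc4 (-0.37, 0.0161). Against 0h 4 were higher in rev (30.8%, beside 12.4%), among them Gpc4 (0.78), Ext1 (0.71) and Hs6st1 (0.41). Exons of Hs6st1 overlap the antisense model Gm37335 over 447 bases. All 10 genes for proteins that act directly below the receptors were tested, with 1 higher at 2h (beside 11.4% of all genes), 1 higher at 4h (17.2%), none called in rev against 4h (16.4% called) and 1 lower in rev against 0h (9.86%). These counts are near or below the shares of all genes. Shc1, an adaptor that binds activated receptors, rose by 0.24 at 2h and 0.31 at 4h (adjusted p 0.0332 and 0.00361), and Sos2, an exchange factor for RAS, was lower in rev than at 0h (-0.34, adjusted p 0.0343).

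The 12 genes of FGF synexpression and feedback, which are switched on by ERK and in part restrain it, were measured in full. All 12 were higher at 2h and at 4h against 0h, beside 11.4% and 17.2% of all genes, with medians of 0.98 and 1.45. Spry4, a feedback inhibitor of receptor signalling, rose by 7.15 and 7.88 on the log2 scale (adjusted p 3.49e-27 and 4.61e-29), and Dusp6, a phosphatase that inactivates ERK, rose by 4.54 and 5.40 (adjusted p 1.37e-19 and 8.11e-23). In rev against 4h 10 of the 12 fell, beside 8.43% of all genes, with a median of -1.35 beside 0.01 for all genes, Spry4 by 6.20 and Dusp6 by 5.24. In rev against 0h 8 were still higher (66.7%, beside 12.4% of all genes), among them Spry4 (1.69), Dusp4 (1.45) and Etv4 (1.44), while Egr1 (-1.36) and Spry2 (-0.31) were lower, with adjusted p from 1.53e-08 to 0.0292. In that comparison Fgf4 and Fgfr1 were higher as well.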

How the data were processed

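The libraries were made from rRNA-depleted total RNA of 16 cultures, and the deposited values are raw read counts per gene, per the values themselves, which are whole numbers. The submitters' processing notes name bcl2fastq 2.19.1, STAR 2.5.3a and the mm10 build, and the counting tool, annotation and strand setting are not given in the sources used here. Of 52636 identifiers, 52489 were matched to GENCODE M21 (GRCm38) for symbols, positions and exon lengths, and 147 were not.

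The tests used edgeR 4.0.16 (with limma 3.58.1, in R 4.3.3): filterByExpr over the groups (12215 genes kept), TMM scaling, and a quasi-likelihood fit of group plus clone over all 16 libraries, with two-sided contrasts and Benjamini-Hochberg adjustment at 0.05. Differences between clones came from a model with 8 group and clone cells. The biological coefficient of variation was 0.0795. Members below the filter were read from the same model without it, an addition made after seeing the data, as were the further settings tried on it for Klb, Fgf8 and Fgfr4.

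The members and lists were chosen with earlier results of these data known. All 10 members are named. From each list, up to 3 called genes per direction with the largest fold change and a mean of at least 5 CPM are named in the comparisons with 0h and in rev against 4h. Fgf3, Fgf10 and Fgf13 were named after their values were seen. Alternatives were other scalings, filters, covariates and thresholds, DESeq2 1.42.0, and leaving out each library. On simulated data for 4h against 0h (11877 genes), 88% of genes changed 2-fold and 98% of those changed 4-fold were recovered, with 8 false calls. The simulation had 200 changed genes, spread taken from the trend and no difference between clones. In the data 4146 genes were called for 4h against 0h and 29.1% between clones, so these rates need not hold there.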

Additional observations from a re-analysis of the deposited data

Results flagged for a closer look

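In 40 groups of 4 libraries (10 genes in 4 groups), the highest or lowest library was set against the others by Dixon's test, which chance fails in about 1 of 20 groups. It singled out 2 values. Fgfrl1 stood at 15.8 CPM in rev clone 8 replicate 2 (35 counts), where the other rev libraries were at 9.34 to 9.94 CPM, a gap of 0.906 of the group's range. In that library the 8 most abundant models took 80.4% of the counts. Fgfr3 stood at 1.13 CPM in 0h clone 8 replicate 1 (7 counts), where the other 0h libraries were at 0.543 to 0.641 CPM, a gap of 0.831 of the range.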

How the results depend on the processing

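Each result was recomputed under up to 27 other settings. Fgf4 kept its direction in all of them in every comparison of groups, and its calls for 4h against 0h and rev against 4h were made in 27 of 27. Scaling by library size alone, which moved the median gene by -0.41 between 4h and rev, -0.32 between 0h and rev and 0.10 between 2h and 4h, gave 5 of the 7 reversals. It called 338 genes for 2h against 0h, 881 for 4h against 0h, 100 for 4h against 2h, 1010 in rev against 0h and 2125 between clones. The share of called genes that were higher was 62.9% in 4h against 0h (50.6% with TMM), 88% in 4h against 2h (51.9%), 3.30% in rev against 4h (48.5%) and 10.4% in rev against 0h (55.8%). Of the members, 0 were lower at 2h, 1 at 4h and 0 in 4h against 2h, and 1 was higher in rev against 4h, 0 in rev against 0h and 0 in clone 8. It reversed rev against 4h for Fgfrl1 (-0.36), rev against 0h for Fgfr1 (-0.10) and Fgfr2 (-0.0029), the clone difference of Fgfr1 (-0.23) and the difference between clones for Fgf4 in 4h against 0h (-0.10). Fgfrl1 in rev against 4h was also reversed with the share of the 8 most abundant models as a covariate (-0.0903) and without rev clone 8 replicate 2 (-0.0818, the lowest of values up to 0.131 with 1 library left out). That covariate left 1229 genes called in rev against 4h. Their cause was not tested.

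A minimum 2-fold change left 345, 729, 119, 328 and 329 genes called in the 5 comparisons and 355 between clones. Of the members it left 0 lower at 2h, 1 at 4h and 0 in 4h against 2h, and 1 higher in rev against 4h, 0 in rev against 0h and 0 in clone 8. Without the clone term 1209 genes were called for 2h against 0h, 219 for 4h against 2h, 881 in rev against 4h and 1452 in rev against 0h. It called 1 member lower at 2h and 0 in 4h against 2h, and 0 higher in rev against 0h. Without the filter 1 member was higher in 4h against 2h (Fgfr4) and 1 lower in rev against 0h (Klb), Klb made 3 lower at 4h, and Fgfr1 lost its calls at 2h and in rev against 0h, where Klb and Fgf8 took its place in the counts. Fitted to the groups compared alone, 1 member was lower at 2h, beside 1047 genes lower and 1230 higher.

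Leaving out each library gave 1 to 3 members lower at 2h (beside 1813 to 2657 genes called in either direction), 2 to 3 at 4h (3456 to 4216), 2 to 3 higher in rev against 4h (1400 to 2145), 1 to 2 higher in rev against 0h (2109 to 2814), and 0 to 1 in the difference between clones for 4h against 0h. Genes called for 4h against 2h ran from 564 (without 2h clone 4 replicate 1) to 967, and were 584 without 4h clone 4 replicate 2. Replicate numbers were not shown to pair cultures (residual r of same-numbered cultures from -0.319 to 0.188, mean 0.00984, 12 pairs, 6108 genes). With clone and replicate number as a replicate block, 2475, 4068, 794, 1949 and 2671 genes were called, the same members were called as without it, and of the unfiltered values only Klb at 2h lost its call (-1.27, adjusted p 0.0659). Depth limits the 6 members below the filter, whose libraries hold 0 to 18 counts.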
